A study of Mus musculus with 2 samples.

Results

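The genes described here are 9 chemokine receptors, and their mRNA was measured in mouse leukemic stem cells (LSCs) that model chronic myeloid leukemia (CML). They are Cxcr4, Cxcr2, Cxcr3, Ccr1, Ccr2, Ccr3, Ccr7, Ccr9 and Cx3cr1, taken by their symbols from the 23284 genes listed, and all 9 were found. The study asked what loss of the adaptor protein STAP-1 changes in these cells and compared 1 WT with 1 STAP-1 KO RNA-seq library. In the WT group, BCR-ABL was introduced by a retroviral vector that also carries green fluorescent protein (GFP) into LSK cells (lineage-negative cells with Sca-1 and c-Kit) of C57BL/6J mice. In the STAP-1 KO group the same was done with LSK cells of mice on that background whose STAP-1 gene had been disrupted by targeting. In both groups, lethally irradiated C57BL/6SJL mice received 10000 sorted GFP+ cells with marrow of the recipient strain, and GFP+ CD45.2+ LSK cells were sorted 11 days after this first bone marrow transplantation. Mice were 8 to 14 weeks old, and how many mice gave cells to each library is not given in the sources used here. The donor cells lack STAP-1 from the germline, and the retrovirus expresses BCR-ABL in whichever cell it enters.

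Chemokine receptors are proteins with 7 membrane-spanning helices that couple to Gi proteins and steer a cell along a gradient of its ligand. Homeostatic receptors guide blood cells to the places where they reside. CXCR4 holds stem cells in the marrow niche near cells that make CXCL12, CCR7 leads lymphocytes and dendritic cells into lymph nodes, and CCR9 leads lymphoid progenitors to the thymus and lymphocytes to the gut. Inflammatory receptors draw leukocytes to damaged or infected tissue: CXCR2 acts on neutrophils, CXCR3 on activated T cells, CCR1 and CCR2 on monocytes and other myeloid cells, and CCR3 on eosinophils, basophils and mast cells. CX3CR1, the receptor of fractalkine, serves both patrolling and inflammatory monocytes and was placed in neither class.

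Levels are FPKM, the fragments assigned to a gene, divided by its exon length and scaled to the mapped fragments of the library, and so can be compared between genes per length. A gene was counted as at least 2-fold higher or lower in the STAP-1 KO library when both libraries had at least 0.1 FPKM. Log2 ratios are log2((STAP-1 KO + 0.1)/(WT + 0.1)) and shrink the differences of genes at low levels. Since each genotype has 1 library, differences could not be checked against replicates and carry no p-value. Intervals are exact 95% intervals on estimated reads and cover counting error only. The effective depths behind them, 7514000 reads for WT and 10492000 for STAP-1 KO, were recovered from the FPKM values and may include a scaling by Cuffnorm, so read numbers and intervals are approximate. The targeted gene Stap1 had 61.95 FPKM in WT and 0.309 FPKM in STAP-1 KO. Over the 10974 genes that averaged at least 1 FPKM, the median log2 ratio was -0.04. Long transcripts had lower ratios than short ones (Spearman's rho of -0.37 across 10862 genes of this pair of libraries, which are not independent replicates), and a length-corrected log2 ratio is therefore given for each receptor, from which the median of genes of like length was subtracted.

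The 9 receptors together had 65.5 FPKM in WT and 29.5 FPKM in STAP-1 KO LSCs. Of the 8 receptors that could be compared, Ccr2 and Ccr1 were at least 2-fold lower in STAP-1 KO and 0 were at least 2-fold higher. Of the 12507 genes that could be compared, 22.9% were at least 2-fold lower and 12.3% at least 2-fold higher, so 2 of 8 is close to the share among all genes. The receptors that passed the cut-off are both inflammatory receptors. In such bulk samples, fewer cells that carry a receptor and less of its mRNA in each cell cannot be told apart.

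The promoters of Ccr2 and Ccr1, the receptors past the cut-off, are shown with that of their neighbor Ccr3 and with that of Cxcr4, the niche receptor with the highest level, so that the start sites of both kinds can be compared. The windows are from RefSeq (GRCm38.p6) and hold 250 bases before and 50 bases after the annotated start, 5′ to 3′ on the strand of the gene. Capitals mark motif matches. Of the 9 receptors, 8 have such a window and Ccr7 does not. The Cxcr4 window is chr1:128592250-128592549 on the minus strand, that of Ccr1 is chr9:123968643-123968942 on the minus strand, that of Ccr2 is chr9:124101933-124102232 on the plus strand and that of Ccr3 is chr9:124021721-124022020 on the plus strand.
Cxcr4: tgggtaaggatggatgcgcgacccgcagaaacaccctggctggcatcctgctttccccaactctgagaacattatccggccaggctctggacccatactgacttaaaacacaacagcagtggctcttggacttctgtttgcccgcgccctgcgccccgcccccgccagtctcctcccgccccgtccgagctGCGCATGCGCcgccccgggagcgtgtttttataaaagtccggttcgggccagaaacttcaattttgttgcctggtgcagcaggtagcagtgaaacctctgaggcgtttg
Ccr1: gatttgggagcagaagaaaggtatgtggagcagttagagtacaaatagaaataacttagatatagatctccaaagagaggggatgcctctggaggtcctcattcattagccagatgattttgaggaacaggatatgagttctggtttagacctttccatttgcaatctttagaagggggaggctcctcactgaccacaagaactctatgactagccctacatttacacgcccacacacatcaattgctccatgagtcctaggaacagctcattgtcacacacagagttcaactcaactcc
Ccr2: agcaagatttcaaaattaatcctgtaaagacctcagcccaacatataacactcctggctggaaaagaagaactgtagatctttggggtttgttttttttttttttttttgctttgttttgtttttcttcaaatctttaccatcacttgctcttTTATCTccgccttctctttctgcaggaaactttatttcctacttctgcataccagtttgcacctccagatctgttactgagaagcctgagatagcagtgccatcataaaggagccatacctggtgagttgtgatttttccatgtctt
Ccr3: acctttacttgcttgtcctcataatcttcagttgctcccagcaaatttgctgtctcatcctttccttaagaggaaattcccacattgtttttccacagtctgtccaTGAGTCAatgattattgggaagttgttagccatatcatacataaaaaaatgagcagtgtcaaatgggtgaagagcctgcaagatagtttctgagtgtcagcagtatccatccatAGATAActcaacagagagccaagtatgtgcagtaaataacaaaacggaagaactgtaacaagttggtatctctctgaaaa

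The Cxcr4 window held 20 CG dinucleotides, more than 73.5% of the 32851 windows of this length, whose median was 7. The windows of Ccr1, Ccr2 and Ccr3 held 1 CG each, and 94.6% of all windows held as many or more. Those of Cxcr2, Cxcr3, Ccr9 and Cx3cr1 held between 2 and 5. A set of 4 motifs was searched on both strands. The STAT motif TTCNNNGAA was in 8.3% of all windows and in 0 of the 8 receptor windows. The GATA motif AGATAA, in 11.2% of all windows, lay 97 bases before the RefSeq start of Ccr2, read there as TTATCT, and 30 bases before that of Ccr3. The AP-1 motif TGANTCA, in 7.81% of all windows, lay 144 bases before the start of Ccr3. The NRF1 core GCATGCGC, in 2.71% of all windows, gave 2 overlapping matches before Cxcr4, at 57 and 59 bases, 1 on each strand. GENCODE places the first start of Ccr2 further upstream, at 124101950, so by that annotation its match lies inside the gene. A match of letters is no binding site, and a motif that was not found says only that its letters are not in the window.

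Ccr2, the receptor by which monocytes leave the marrow toward CCL2, had the highest level of the 9 in both libraries (GRCm38 chromosome 9, 124101950 to 124113557, plus strand). It had 41.8 FPKM in WT and 10.3 FPKM in STAP-1 KO, and was 4.08-fold lower in the latter (95% counting interval from 3.50 to 4.78). The log2 ratio was -2.02, and 7.43% of the compared genes had a lower one. With the length correction it was -1.43, which was still past the cut-off. At least 646 reads in WT and 221 in STAP-1 KO stood behind these values, counted with the shortest of its 4 annotated transcripts. Of the 75-base stretches of its transcripts, 1.16% also occur in another gene.

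Ccr1, a receptor for CCL3, CCL5 and other ligands (chromosome 9, 123962124 to 123968692, minus strand), had 6.71 FPKM in WT and 2.62 FPKM in STAP-1 KO. It was 2.56-fold lower (interval from 1.91 to 3.46) with a log2 ratio of -1.32, or -1.45 with the length correction. About 132 and 72.1 reads stood behind the values. The lower bound of this interval lay below the 2-fold cut-off, whereas that of Ccr2 lay above it.

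Ccr3, the eotaxin receptor (chromosome 9, 124021972 to 124031689, plus strand), was close to the detection limit. It had 0.261 FPKM in WT, about 6.01 reads, and 0.0312 FPKM in STAP-1 KO, about 1 read. The STAP-1 KO value was under the floor, so Ccr3 was not compared. The plain ratio of STAP-1 KO to WT was 0.119 with an interval from 0.00259 to 0.984, and the log2 ratio with the pseudocount was -1.46.

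The CXC receptors of the inflammatory class stayed within 2-fold. Cxcr3 (X chromosome, 101731535 to 101734269, minus strand) had 2.76 FPKM in WT and 1.64 FPKM in STAP-1 KO, a log2 ratio of -0.72. The interval of its ratio ran from 0.333 to 1.01, so counting error alone covers an equal level. With the length correction the log2 ratio was -1.11, which is past the cut-off. Cxcr2 (chromosome 1, 74153989 to 74161246, plus strand) had 1.88 and 1.38 FPKM, a log2 ratio of -0.42, with an interval of the ratio from 0.426 to 1.29. This interval includes both a 2-fold lower and an equal level, and the depth did not allow a finer statement. Of the 75-base stretches of Cxcr2, 1.81% also occur in other genes.

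Of the homing receptors, Cxcr4 (chromosome 1, 128588199 to 128592293, minus strand) had 7.47 FPKM in WT and 8.74 FPKM in STAP-1 KO, from about 89.6 and 146 reads. Its ratio was 1.17, with an interval from 0.887 to 1.53, which excludes a 2-fold difference in either direction as far as counting error goes. The log2 ratio was 0.22 as deposited and -0.17 with the length correction, so its sign depends on that choice. Ccr7 (chromosome 11, 99144196 to 99155077, minus strand) had 1.36 and 1.57 FPKM, from about 18.1 and 29.1 reads, and its ratio of 1.15 had an interval from 0.619 to 2.21. The log2 ratio of Ccr7 was 0.19, and -0.23 with the length correction.

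Ccr9 (chromosome 9, 123678439 to 123784330, plus strand) had 0.356 FPKM in WT and 0.603 FPKM in STAP-1 KO. Its log2 ratio of 0.62 was the highest of the 9, and it was 1.16 with the length correction. The interval of the ratio was wide, from 0.656 to 5.63, since as few as 6.45 and 15.3 reads may stand behind it. The level is also uncertain because 18.8% of the exon bases of Ccr9 lie in an antisense gene, AC165425.1, and the library kit does not keep the strand.

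Cx3cr1 (chromosome 9, 119901616 to 120069879, minus strand) had 2.84 FPKM in WT and 2.69 FPKM in STAP-1 KO. The ratio of 0.945 had an interval from 0.672 to 1.33. Its log2 ratio of -0.08 turned to 0.19 with the length correction.

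**Figure D1:**
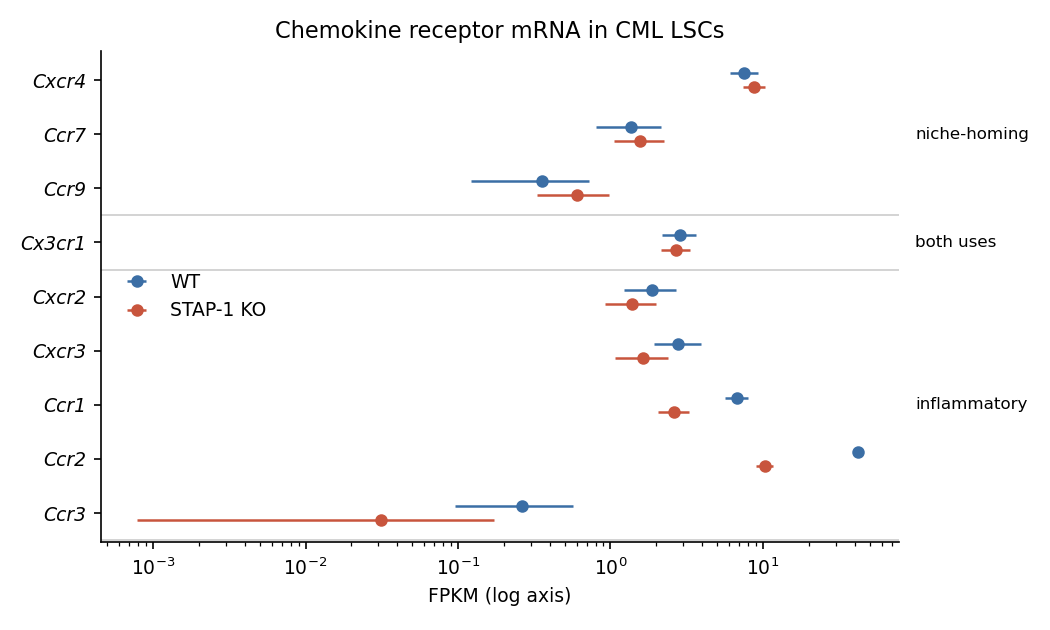
Level of each chemokine receptor in FPKM on a log axis in the WT library (blue) and the STAP-1 KO library (red), with 1 library each, where points are the deposited values and lines the 95% counting intervals, which are narrower than the point for Ccr2 in WT. Ccr2 (41.8 and 10.3 FPKM) and Ccr1 (6.71 and 2.62 FPKM) have intervals that lie apart, those of Cxcr4, Ccr7, Ccr9, Cx3cr1, Cxcr2 and Cxcr3 overlap, and Ccr3 rests on about 1 read in STAP-1 KO.

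Ccr2 ranked first and Cxcr4 second in both libraries, but the gap between them differed as deposited. The length correction brings their log2 ratios closer, from -2.02 to -1.43 for Ccr2 and from 0.22 to -0.17 for Cxcr4. The levels and shares that follow are not corrected, so part of the change in the gap depends on that choice. In WT, Ccr2 stood 5.59-fold above Cxcr4, and their intervals lay apart. Cxcr4 and Ccr1 followed without a difference beyond counting error, then, below a gap, Cx3cr1, Cxcr3, Cxcr2 and Ccr7, whose neighbors had overlapping intervals, and last, below another gap, Ccr9 and Ccr3. In STAP-1 KO, Ccr2 and Cxcr4 had overlapping intervals, with Ccr2 at 1.17 times the level of Cxcr4. Below them came Cx3cr1, Ccr1, Cxcr3, Ccr7, Cxcr2 and Ccr9, again with overlapping neighbors, and then Ccr3. Ccr2 made up 63.9% of the summed FPKM of the 9 receptors in WT and 34.7% in STAP-1 KO, and Cxcr4 11.4% and 29.6%. Among all detected genes, the level of Ccr2 lay above 80.3% in WT and 56.4% in STAP-1 KO, and that of Cxcr4 above 46.6% and 53.7%.

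Taken by class, the 5 inflammatory receptors had a median log2 ratio of -1.32, with values from -2.02 for Ccr2 to -0.42 for Cxcr2, Ccr3 included although it rests on about 6 reads and 1 read. This median was -0.51 at a pseudocount of 1 FPKM and -1.02 without Ccr3, over the members that averaged at least 1 FPKM. The 3 homing receptors had a median of 0.22, with values from 0.19 to 0.62, and this median was -0.17 with the length correction. As deposited, the log2 ratio of each inflammatory receptor was lower than that of each homing receptor, but the counting intervals of receptors such as Cxcr2 and Ccr7 overlapped. With Cx3cr1 counted as inflammatory, the median of that class was -1.02, and with the length correction Cx3cr1 at 0.19 lay above Cxcr4 at -0.17 and Ccr7 at -0.23. The summed level was 53.4 FPKM in WT and 15.9 FPKM in STAP-1 KO for the inflammatory class, most of it Ccr2, and 9.19 and 10.9 FPKM for the homing class, most of it Cxcr4. These are 3 and 5 genes of a single pair of libraries, and the difference between the classes was not tested.

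**Figure D2:**
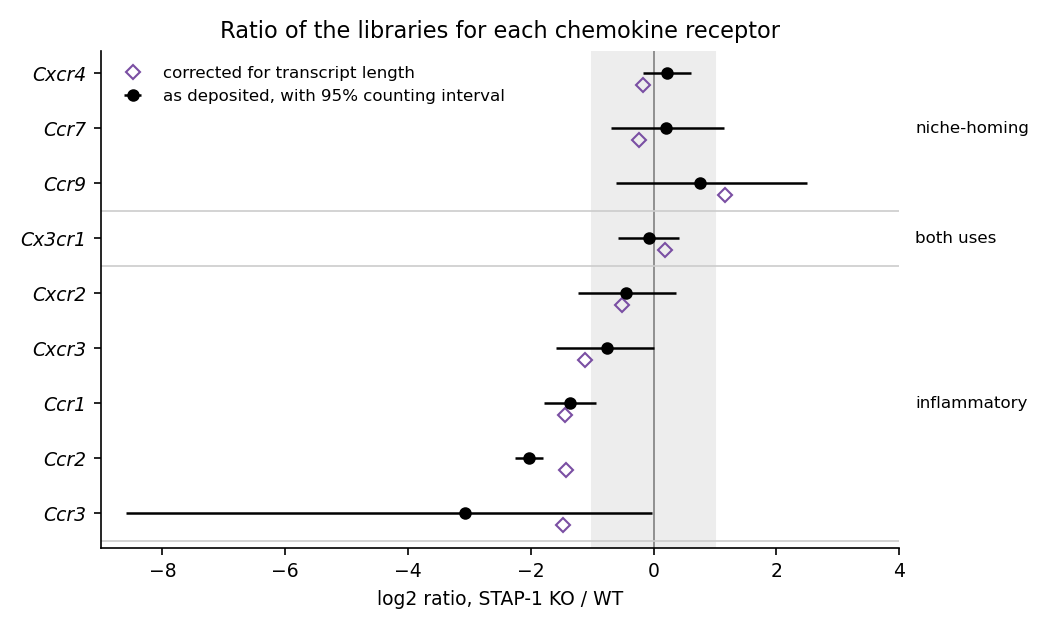
Log2 ratio of STAP-1 KO to WT for each receptor, where black points are the plain ratio without a pseudocount with its 95% counting interval, open diamonds are log2((STAP-1 KO + 0.1)/(WT + 0.1)) after the length correction, and the gray band marks the range within 2-fold. Ccr2, Ccr1 and Ccr3 lie left of the band on both measures, but Ccr3 was under the floor in STAP-1 KO and was not compared. Cxcr3 and Ccr9 leave the band only with the length correction, and Cxcr4, Ccr7 and Cx3cr1 change sign with it. The marks of Ccr3 lie apart mostly because the pseudocount enters only the diamond.

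Beyond these 9, the mouse chemokine receptor family has 15 other receptors in the files. Of them, 8 could be compared, of which 4 were at least 2-fold lower in STAP-1 KO and 1 was higher, where all compared genes gave 22.9% and 12.3%. Ccrl2, a receptor that presents chemerin and gives no chemotactic signal, had 91.2 FPKM in WT and 36.7 FPKM in STAP-1 KO and was above all 9 receptors in both. Xcr1, the XCL1 receptor of cross-presenting dendritic cells, had 6.85 and 1.96 FPKM. Ccr8 had 3.38 and 0.504 FPKM, from about 24.5 and 5.10 reads, with an interval of the ratio from 0.0445 to 0.399. Ccr4 had 1.09 and 0.148 FPKM, from about 21.2 and 4.03 reads, with an interval from 0.0340 to 0.404. Both are best known from T-cell subsets. The receptor that was higher, Cxcr6, had 0.317 and 0.964 FPKM, from about 4.04 and 17.2 reads, with an interval of the ratio from 0.993 to 12.4. With the length correction the log2 ratio of Cxcr6 went from 1.35 to 0.93, under the cut-off.

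The others that could be compared stayed within 2-fold. Cxcr5 had 0.332 and 0.198 FPKM, and the decoy receptor Ackr1, listed as Darc, had 5.05 and 4.32 FPKM. Ccr6 (0.132 and 0.0943 FPKM) and Ccr1l1 (0.213 and 0.0763 FPKM) were below the floor in STAP-1 KO. Ccr10, Ackr3 and Ackr4 were listed at 0 in WT and at 0.693, 0.161 and 0.101 FPKM in STAP-1 KO. Cxcr1 and Ackr2 were listed at 0 in both. Ackr3, listed as Cxcr7, is the second receptor of CXCL12.

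**Figure D3:**
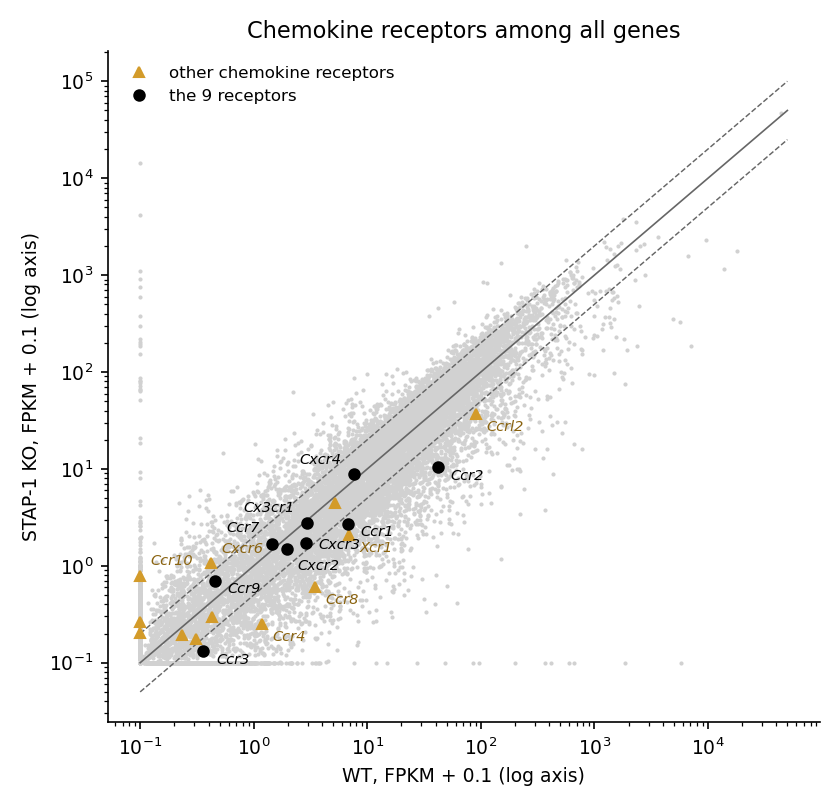
FPKM + 0.1 in the WT library against FPKM + 0.1 in the STAP-1 KO library on log axes for all genes (gray), the 9 receptors (black circles) and other chemokine receptors with at least 0.1 FPKM in a library (orange triangles), with the line of equal levels (solid) and the 2-fold lines (dashed). Ccr2, Ccr1, Ccrl2, Xcr1, Ccr8 and Ccr4 lie below the lower dashed line, Cxcr6 lies above the upper one, and so do Ccr10, Ackr3 and Ackr4, which are at 0 in WT, while Ccr3, also below the lower line, was under the floor.

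Position is a feature that several of the receptors share. Ccr1, Ccr3 and Ccr2 lie in this order on chromosome 9, at -139.8, -79.98 and 0 kb from the lower coordinate of Ccr2, in a cluster that also holds Xcr1, Ccr1l1, Cxcr6 and Ccr9. This neighborhood was examined after the values had been seen. Of its 8 receptors, 6 were compared, of which Xcr1, Ccr1 and Ccr2 were at least 2-fold lower in STAP-1 KO and Cxcr6 was higher, beside 22.9% lower and 12.3% higher among all compared genes, and the 6 log2 ratios fell on both sides of 0, from -2.02 to 1.35, with none near their median of -0.53.

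The 12 other genes from 500 kb before Ccr9 to 500 kb after Ccr2 were set beside the cluster. Of the 9 compared, 3 were at least 2-fold lower and 0 higher (again beside 22.9% and 12.3%), with a median log2 ratio of -0.62. The lower ones were Tmem158 (175.9 and 10.8 FPKM), Fyco1 (2.41 and 0.664 FPKM) and Slc6a20a (0.633 and 0.227 FPKM). Sacm1l (40.7 and 39.2 FPKM), Lars2 (405 and 349 FPKM) and Lztfl1 (3.78 and 5.17 FPKM) stayed within 2-fold.

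**Figure D4:**
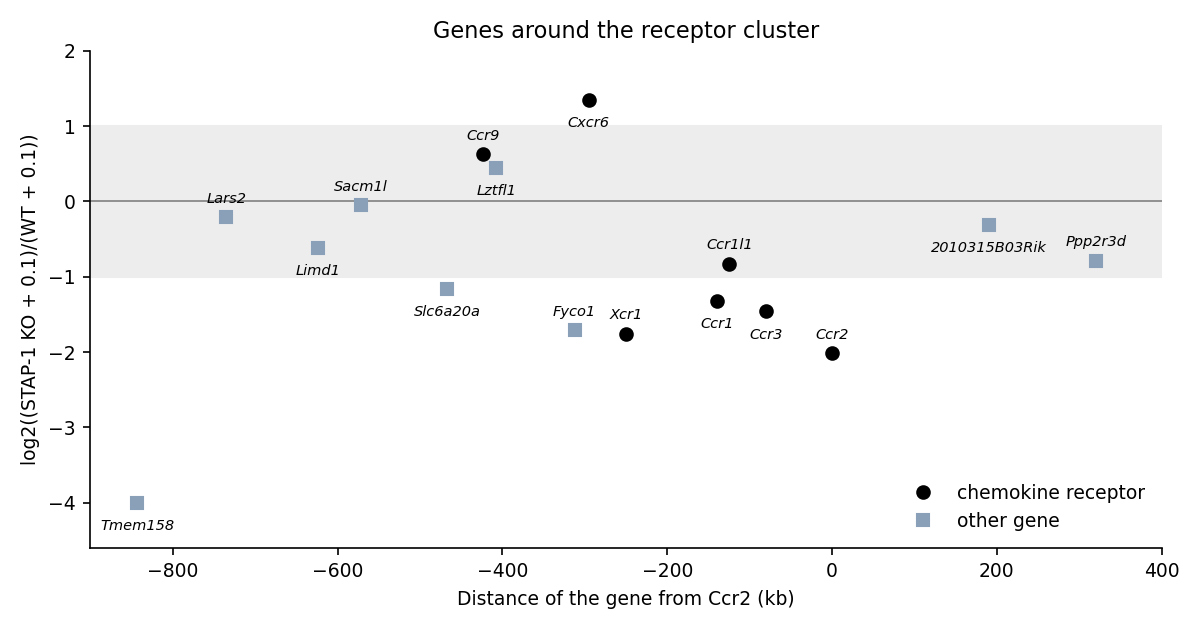
Log2((STAP-1 KO + 0.1)/(WT + 0.1)) of chemokine receptors (black circles) and other genes (blue squares) of the chromosome 9 cluster against the distance of each gene from Ccr2 in kb, where the gray band marks log2 ratios within 2-fold and genes under 0.1 FPKM in both libraries are not drawn. Xcr1, Ccr1 and Ccr2 lie below the band, Cxcr6 above it and Ccr9 within it, and Ccr3 and Ccr1l1 were under the floor in STAP-1 KO.

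The ligands were measured in the same sorted cells. Of 23 known ligands of the 9 receptors, 17 could be compared, of which 7 were at least 2-fold lower and 5 at least 2-fold higher in STAP-1 KO, where the shares among all compared genes are 22.9% and 12.3%. For the 13 ligands that averaged at least 1 FPKM, the median log2 ratio was -1.29, whereas over all 17 compared it was -0.17, since the 4 at lower levels all had log2 ratios above 0 as deposited (Cxcl5 had -0.36 with the length correction). Their direction divided by chemokine class, a division that was made after the values were seen: of the CC ligands 7 of 8 compared were lower and 0 higher, and of the CXC ligands 4 of 8 compared were higher and 0 lower.

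The highest ligand levels in WT were those of Ccl3, Ccl2, Ccl6, Ccl7 and Ccl9, which bind Ccr1 or Ccr2. Ccl2, the main ligand of Ccr2, had 383 FPKM in WT and 15.8 FPKM in STAP-1 KO, a log2 ratio of -4.59. Ccl7, which binds Ccr1, Ccr2 and Ccr3, had 122 and 4.36 FPKM, a log2 ratio of -4.78. Ligand and receptor of this pair thus were both lower, with the larger ratio for the ligand. Ccl3 had 485 and 67.3 FPKM, Ccl6 288 and 104 FPKM, Ccl9 88.8 and 31.0 FPKM and Ccl5 18.6 and 5.33 FPKM, and all 4 bind Ccr1. The Ccr3 ligand Ccl24 had 2.96 and 1.15 FPKM. Ccl8, Ccl11 and Ccl12 were listed at 0 in both libraries.

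The ligands of the CXC receptors had other ratios. Cxcl10, the interferon-induced ligand of Cxcr3, had 16.9 FPKM in WT and 77.1 FPKM in STAP-1 KO, a log2 ratio of 2.18, while Cxcr3 itself had 2.76 and 1.64 FPKM. Cxcl9 had 0.742 and 0.850 FPKM, and Cxcl11 was listed at 0 in WT and had 0.139 FPKM in STAP-1 KO. Of the Cxcr2 ligands, the platelet chemokine Ppbp rose from 5.05 to 18.0 FPKM. Cxcl2 had 22.6 and 39.2 FPKM, Cxcl3 3.48 and 3.09 FPKM and Cxcl5 0.184 and 0.198 FPKM, all within 2-fold. Cxcl1 passed the cut-off at 0.180 and 0.516 FPKM, but on about 1 and 4 reads, and its log2 ratio was 0.71 with the length correction.

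Cxcl12, the ligand that retains Cxcr4-bearing cells in the marrow, had 0.194 FPKM in WT and 2.68 FPKM in STAP-1 KO. It was 13.8-fold higher with an interval from 6.73 to 32.1, from about 7.90 and 152 reads, next to a Cxcr4 level whose interval excluded a 2-fold change. Marrow stromal cells are the usual source of Cxcl12. Whether stromal or other cells outside the sort gate had a part in this level was not tested. The Ccr9 ligand Ccl25 had 4.66 and 4.03 FPKM. The Ccr7 ligands Ccl19 and Ccl21a were listed at 0 in both libraries. Cx3cl1, the ligand of Cx3cr1, rose from 0.318 to 0.944 FPKM, on about 7.42 and 30.7 reads.

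**Figure D5:**
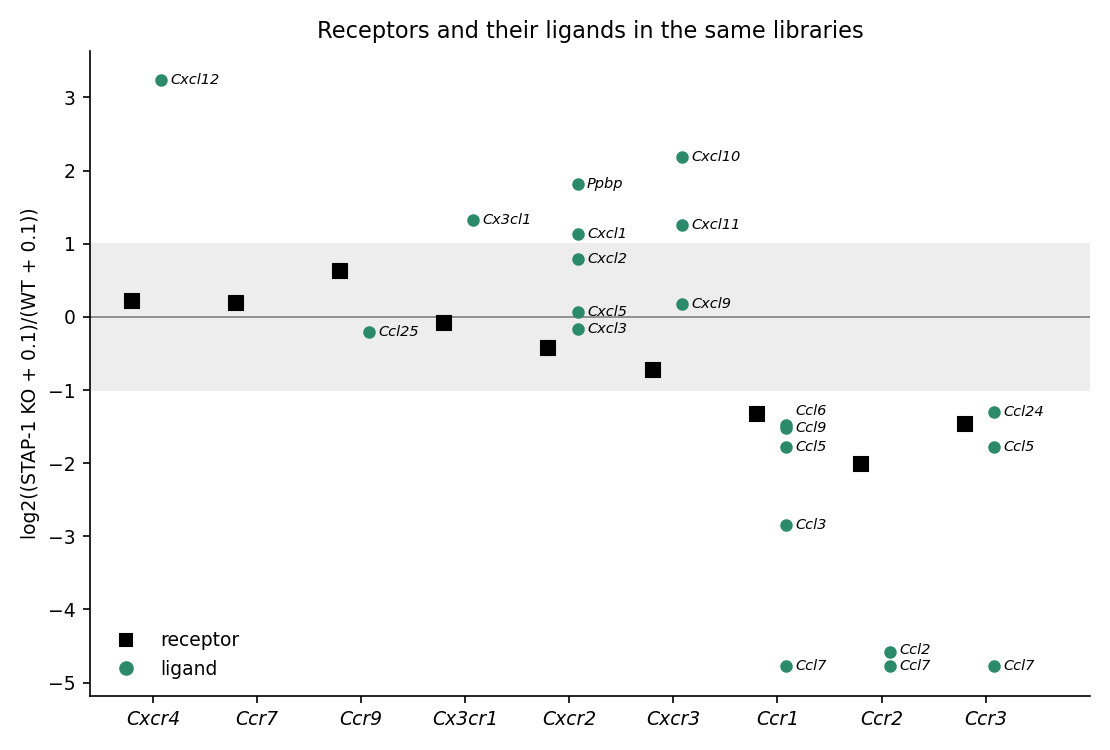
Log2((STAP-1 KO + 0.1)/(WT + 0.1)) of each receptor (black squares) and of its ligands measured in the same libraries (green circles, with a ligand of several receptors drawn at each), where the gray band marks log2 ratios within 2-fold and ligands at 0 in both libraries are left out. The ligands of Ccr1, Ccr2 and Ccr3 lie below the band and those of the CXC receptors within or above it; Cxcl11 (at 0 in WT) and Cxcl1 (about 1 read in WT) are uncertain, and Cxcr4, Ccr7 and Cx3cr1 change sign with the length correction.

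Behind the receptors stand the Gi proteins and the enzymes that turn the signal into movement. Of 24 such transducers, 23 could be compared, of which 8 were at least 2-fold lower and 1 was higher in STAP-1 KO, beside 22.9% lower and 12.3% higher among all compared genes. The median log2 ratio was -0.60, and 22 of 23 were below 0. The lower ones included Prex1, the Rac exchange factor that answers to Gβγ (33.4 and 2.96 FPKM), Pik3cg, the catalytic subunit of the PI3K that Gβγ activates (47.5 and 8.96 FPKM), and Dock2, the Rac activator of leukocyte migration (50.5 and 10.3 FPKM). Ptk2b (40.8 and 12.6 FPKM), Gna13 (35.0 and 12.3 FPKM), Plcb2 (11.9 and 5.15 FPKM), Plcb3 (9.50 and 4.48 FPKM) and Pik3r6 (2.42 and 0.981 FPKM) were also lower. With the length correction Gna13 at -0.91, Plcb2 at -0.65 and Plcb3 at -0.80 were within 2-fold and Gnb2 at -1.07 and Rac2 at -1.04 past it, so that 7 were lower. Rasgrp2, the Rap1 activator that turns on integrins, rose from 5.24 to 25.6 FPKM. The main Gi subunit of leukocytes, Gnai2, had 344 and 226 FPKM, within 2-fold.

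Desensitization ends the signal of a chemokine receptor through receptor kinases, arrestins and RGS proteins. Of 14 such genes, 12 could be compared, of which 5 were at least 2-fold lower and 0 higher, against 22.9% and 12.3% of all compared genes, with a median log2 ratio of -0.92. Rgs1, which damps the response to CXCL12, had 1386 FPKM in WT and 291 FPKM in STAP-1 KO. Rgs2 had 348 and 121 FPKM, Rgs14 27.3 and 9.56 FPKM, Rgs10 33.2 and 15.2 FPKM, and the β-arrestin gene Arrb1 13.8 and 2.75 FPKM. Rgs18 (102 and 105 FPKM) and Rgs19 (124 and 129 FPKM) had nearly equal values. With the length correction 6 were lower, Arrb2 at -1.31 being added.

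Adhesion follows chemokine sensing when a cell stops on endothelium. Of 11 adhesion genes, 4 were at least 2-fold lower and 1 was higher (22.9% and 12.3% among all compared genes), with a median log2 ratio of -0.79. The integrin genes Itgb2 (175 and 34.2 FPKM), Itga5 (19.5 and 6.41 FPKM) and Itga4 (20.3 and 8.28 FPKM) were lower, as was Tln1, whose talin links integrins to actin (97.3 and 8.38 FPKM). With the length correction Itga4 had a log2 ratio of -0.28, within 2-fold, and Selplg was past it at -1.12, so that 4 were lower again. Itga4 pairs with β1 integrin to bind VCAM1 in the marrow niche, as Cxcr4 signaling triggers. Median ratios below 0 in the 3 lists stand beside the value of -0.04 for all genes, and none was tested against other genes.

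The cells behind these levels differed between the libraries in their markers. The counts of markers past the cut-off given here stand beside 22.9% lower and 12.3% higher among all compared genes. Of the genes of the sort gate, Kit had 468 FPKM in WT and 30.1 FPKM in STAP-1 KO and Ly6a, which encodes Sca-1, 285 and 106 FPKM. Ptprc, which encodes CD45, had 107 and 38.2 FPKM, a log2 ratio of -1.49 that was -0.90 with the length correction. Of 3 genes that mark subsets of LSK cells and were not sorted on, Slamf1 rose from 3.39 to 8.67 FPKM, and Cd34 (281 and 194 FPKM) and Flt3 (7.62 and 6.54 FPKM) stayed within 2-fold. All 10 mast cell and basophil markers were detected, 9 of them at least 2-fold lower in STAP-1 KO, and their summed level was 51462 FPKM in WT and 5276 FPKM in STAP-1 KO, with Cpa3 highest at 17984 and 1775 FPKM. Mast cells and basophils can carry Ccr1, Ccr2 and Ccr3. Of 8 neutrophil markers 6 were lower (sums of 418 and 186 FPKM). Of the 7 monocyte and macrophage markers compared, a cell type that also carries Ccr1, Ccr2 and Cx3cr1, 4 were higher and 1 lower, and the 8 markers of the list summed to 84.3 and 136 FPKM. Lyz2, with 35.2 and 92.0 FPKM and a log2 ratio of 1.38 that was 0.97 with the length correction, under the cut-off, carried the higher sum, and Adgre1 was lower with 30.7 and 4.34 FPKM. The 7 eosinophil markers listed summed to 10.8 FPKM in WT and 80.1 FPKM in STAP-1 KO, of which Prg2 made up 61.7 FPKM, with 3 higher and 1 lower of 5 compared, while Ccr3, a receptor of mature eosinophils, was near its detection limit. Of 6 dendritic cell markers compared, Xcr1 among them, 4 were lower and 1 was higher, and the summed level of the list was 98.7 FPKM in WT and 256 FPKM in STAP-1 KO, most of it Bst2 in both. Of the 6 T and NK cell markers compared, 2 were higher and 1 lower, and the sums of 469 and 803 FPKM were nearly all Nkg7. Of the 6 B cell markers, 1 could be compared and was higher, Cd79b with 3.10 and 17.8 FPKM. Ms4a1 had 0.505 and 0.0517 FPKM, from about 10.9 and 1.55 reads, while Pax5 and Ebf1 were at 0 in both libraries. Of the 3 lineage antigens of the sort that could be compared, 1 was at least 2-fold lower and 0 were higher. That was Cd8a with 0.369 and 0.132 FPKM, from about 8.09 and 4.04 reads, while Cd3e had 0.869 and 1.09 FPKM and Itgam 1.82 and 1.56 FPKM. The part of these cell types in the receptor levels was not tested.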

How the data were processed

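Total RNA of sorted GFP+ CD45.2+ LSK cells was made into libraries with SMART-Seq v4 and Nextera XT kits, which do not keep strand. Single reads of 75 bases were mapped by the authors to mm10 with TopHat, and Cuffnorm gave the deposited FPKM values; per the labels, TopHat2 2.0.13, Bowtie2 2.2.3, SAMtools 0.1.19 and Cufflinks 2.2.1 were used. The gene annotation and the read totals are not given in the sources used here.

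Ratios were computed in Python 3.11.15 (scipy 1.17.1, pandas 2.3.3, numpy 2.4.6) and drawn with matplotlib 3.10.9. The fold cut-off of 2 is that of the study, applied without a pseudocount where each library had at least 0.1 FPKM, and log2 ratios used a pseudocount of 0.1 FPKM. Symbols were matched to GENCODE M21 (20911 as written, 1914 by an older symbol, 459 not matched). Reads were estimated from the steps of low FPKM values: 42.4% of 368 WT and 46.9% of 367 STAP-1 KO values came within 0.01 of a whole number of reads, and chance gives 2%. Reads were counted with 210 (WT) or 211 (STAP-1 KO) bases taken off the transcript, and PCR copies without molecular identifiers are not independent molecules. The length correction subtracted the median log2 ratio of each of 20 bins of transcript length. Medians of the ligand and pathway lists used members that averaged at least 1 FPKM, and those of the 2 receptor classes members with at least 0.1 FPKM in a library. The steps were tested on simulated data.

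Members and lists were chosen with earlier results of these data known. Named genes are the 9 receptors, the rest of their family, their ligands, Stap1, the markers of the LSK gate and of subsets of LSK cells, up to 8 called members of each pathway list by log2 ratio at a pseudocount of 1 FPKM, and up to 3 members of each marker list. Gnai2, Gnb2, Rac2, Arrb2, Selplg, Rgs18, Rgs19, the B cell genes other than Cd79b and the genes around the receptor cluster were named after their values were seen. Of the genes the rule selects, 3 that are counted in their lists are not reported by name here. Alternatives changed the pseudocount, scaling, floor, cut-off, length correction and class membership, and 4 more, the whole family, classes with at least 10 estimated reads and list medians over all compared members with and without the length correction, were added after seeing the data.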

Additional observations from a re-analysis of the deposited data

How the results depend on the processing

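No paired analysis was possible because there was 1 library per genotype, and for the same reason no library could be left out. Over the 9 receptors and 54 alternatives, 53 log2 ratios moved by less than the counting interval and kept any call made as deposited. Ccr2 moved to -1.43 with the length correction. Cxcr3 and Ccr9, not called as deposited, passed the cut-off with that correction, at -1.11 and 1.16. Cxcr4 ranged from -0.17 to 0.33 over the settings, Ccr7 from -0.23 to 0.30 and Cx3cr1 from -0.13 to 0.19, none of them past the cut-off. The median of the homing receptors reversed to -0.17 with the length correction, and that of the inflammatory receptors was -0.51 at a pseudocount of 1 FPKM. The length correction also gave medians of -1.60 for the 13 ligands, -1.31 for desensitization and -0.72 for adhesion, and rescaling each library to a sum of 1000000 gave -0.50 for the transducers and -0.68 for adhesion. Over all compared members, a choice added after seeing the data, the ligand median was -0.17 (-0.36 with the length correction), that of desensitization -0.82 and that of adhesion -0.72 with the length correction. Of the receptors compared, 1 (Ccr9) was higher at a 1.5-fold cut-off and 1 (Ccr9) with the length correction, and in each of these settings 3 were lower, with Cxcr3 added. Among all genes, 32.8% were lower and 25.6% higher at 1.5-fold, and 18.3% and 11% with the length correction. At a 4-fold cut-off 1 (Ccr2) was lower, as were 8.56% of all genes. Over the whole family, an alternative added after seeing the data, 6 of 16 compared receptors were lower and 1 was higher, with 22.9% and 12.3% among all genes. Over all genes that averaged at least 1 FPKM, the median lay between -0.10 and 0.06 over the scalings. Depth limits what can be said of Ccr3, Ccr9, Ccr7, Cxcr2 and Cxcr3, each with fewer than 30 reads, by the lower estimate, in a library.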
